A study of Homo sapiens with 6 samples.

Results

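The mRNAs of the 5 NF-kappaB subunits (NFKB1, NFKB2, REL, RELA and RELB) and of 5 feedback regulators of the pathway (NFKBIA, NFKBIE, TNFAIP3, BIRC3 and PELI1) were compared between A549 cells with and without MIR21. The genes were chosen by name, with earlier results of these data known. All 10 were found among the 58174 genes of the deposited table. A549 is a human lung adenocarcinoma line with an epithelial origin. Ctrl cells were the parental line, and MIR21-KO cells carried a CRISPR/Cas9 deletion of MIR21, the gene of the miR-21 precursor, made with a pair of guide RNAs. MIR21-KO cells were grown out from single sorted cells, and the number of clones behind the 3 libraries is not stated, so clonal differences and the deletion cannot be told apart. Each group had 3 polyA RNA-seq libraries from cells harvested 48 h after seeding, and the labels name no cytokine or other stimulus for either group.

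NF-kappaB factors are dimers of 5 related proteins. NFKB1 and NFKB2 are made as long precursors that are processed to the DNA-binding subunits p50 and p52, whereas RELA, RELB and REL (c-Rel) carry transactivation domains. In resting cells dimers are held in the cytoplasm by IkB proteins such as IkBα (NFKBIA) and IkBε (NFKBIE), until IkB kinase marks these for degradation. Many of the brakes are themselves transcribed from NF-kappaB sites, which closes negative feedback loops: NFKBIA resequesters the dimers, TNFAIP3 (A20) edits ubiquitin chains on upstream adaptors, and BIRC3 (cIAP2) is a ubiquitin ligase at the TNF receptor that also keeps the kinase NIK low. PELI1 is a ubiquitin ligase of the IL-1 and Toll-like receptor pathways and a reported miR-21 target.

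The libraries held 10631667 to 14345209 reads assigned to genes, and levels are given as FPKM, read fragments scaled to gene length in kilobases and to library size. At this depth the 10 genes were covered by 33 to 1600 reads per library, and only REL and PELI1 stayed at or below 154 reads in every library. MIR21 itself was listed at 0 FPKM in all 6 libraries, which for an RNA that is cut from its primary transcript checks no label. All 5 epithelial markers were expressed, with a summed level of 1194 to 1288 FPKM in Ctrl and 775.9 to 1106 FPKM in MIR21-KO cells. Means in Ctrl and MIR21-KO cells were 673 and 422 FPKM for KRT18 and 484 and 414 FPKM for KRT8. They were 8.18 and 2.86 FPKM for CDH1 and 1.19 and 0.695 FPKM for EPCAM, while KRT19 was higher in MIR21-KO cells, at 88.3 and 109 FPKM. Of the leukocyte markers, CD14 was expressed and CD3E was at 0, and the summed endothelial markers stayed at or below 0.0855 FPKM. The fibroblast list summed to 7.46 to 8.35 FPKM in Ctrl and 13.02 to 13.12 FPKM in MIR21-KO cells. THY1 differed most in FPKM, at 2.28 and 7.15, while COL1A1 was at 3.41 and 3.91 FPKM and LUM at 2.11 and 1.88 FPKM. The part of the epithelial and fibroblast marker values in the results below was not tested. In bulk RNA, fewer cells that express a gene and less RNA per cell cannot be told apart. The MIR21-KO libraries 1 and 3 stood further apart than any other pair of one group, with a chi-square over genes of 29.6 per degree of freedom, against 2.59 to 4.92 within Ctrl.

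Because MIR21 was the deleted gene, the seed of miR-21-5p was matched to the longest annotated 3′ UTR of each gene. The mature sequence is shown with its seed, bases 2 to 8, in capitals, and let-7a-5p, the seed of the let-7 family that the study also examined, is shown beside it (RefSeq, GRCh38.p14; chr17:59841273-59841294 on the plus strand and chr11:122146568-122146589 on the minus strand).
hsa-miR-21-5p: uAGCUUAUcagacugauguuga
hsa-let-7a-5p: uGAGGUAGuagguuguauaguu
Of the 10 genes, 2 held a match of at least 7 bases to miR-21-5p. PELI1 had an 8mer at bases 36 to 43 of a UTR of 2050 bases, and TNFAIP3 had a 7mer at bases 1858 to 1864 of a UTR of 3156 bases. These sites are printed because they are where the seed of the deleted miRNA matches the genes described, with the seed match in capitals (GENCODE 29 transcripts, GRCh38; chr2:64094659-64094680 on the minus strand and chr6:137881435-137881456 on the plus strand).
PELI1 miR-21 site: tacattataaatttATAAGCTA
TNFAIP3 miR-21 site: agcaggagaggaaagATAAGCT
NFKB1 held only a 6mer, and the other 7 genes held no match. Among the 11659 tested genes with a 3′ UTR, 2.98% had an 8mer as best match and 15.14% had any match of 7 or 8 bases. The let-7 seed was matched in the UTRs of REL and TNFAIP3, and REL held 2 such sites in a UTR of 9075 bases, the stronger of them at chr2:60923949-60923970 on the plus strand.
REL let-7 site: ctagactccctgtcCTACCTCA
Matches of 7 or 8 bases to let-7 were found in 20.33% of the tested UTRs. A seed match describes the sequence only, and binding was not measured.

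The promoters, taken as 250 bases before to 50 bases after each RefSeq start (GRCh38.p14), were searched on both strands for the NF-kappaB consensus of 10 bases, where a palindromic site can match on both strands at once. Promoters of 8 of the 10 genes were matched, and RELB and NFKBIE had no entry. The consensus was found in at least 1 promoter of 6 of these 8 genes (75.0%), against 8.97% of 9355 tested genes and 7.09% of all 27305 genes with an entry. PELI1 and RELA had no match in their windows. The matches are shown in capitals on the strand of the gene, because they mark which genes of the pathway carry the motif of the pathway's own factors. The windows lie at chr2:60881518-60881546 (REL), chr4:102501300-102501329 (NFKB1), chr10:102395674-102395703 (NFKB2), chr14:35404811-35404840 on the minus strand (NFKBIA), chr6:137867188-137867217 (TNFAIP3), chr11:102317275-102317304 and chr11:102317339-102317368 (BIRC3).
REL: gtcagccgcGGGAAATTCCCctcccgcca
NFKB1: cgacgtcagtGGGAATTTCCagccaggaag
NFKB2: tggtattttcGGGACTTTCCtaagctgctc
NFKBIA: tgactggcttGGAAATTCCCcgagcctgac
TNFAIP3: ctttGGAAAGTCCCgtGGAAATCCCCgggc
BIRC3 distal: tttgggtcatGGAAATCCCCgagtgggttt
BIRC3 proximal: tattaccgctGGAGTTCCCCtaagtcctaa
TNFAIP3 carried a pair of matches 67 to 46 bases before its start, and the BIRC3 matches lay 199 to 190 and 135 to 126 bases before its start. NFKB2 held 4 match regions in all, of which 2, the printed one included, lay before the same start, 2 lay before another annotated start, and the remaining start had no match in its window. Genes that moved in opposite directions below, TNFAIP3 against NFKBIA and BIRC3, thus share the motif. The median GC content of the promoters of the 8 genes was 68.2%, against 65.0% over promoters of tested genes and 58.7% over all promoters.

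Across the 10 mRNAs, TNFAIP3 rose 1.92-fold in MIR21-KO cells, whereas BIRC3 fell to 0.348 and NFKBIA to 0.649 of the Ctrl level. The other 7 genes did not pass the threshold, a false discovery rate (FDR, limma with Benjamini-Hochberg adjustment over all 16006 genes tested) under 0.01. All 10 passed the filter of a mean of 0.5 FPKM. The 3 calls among 10 genes, 1 higher and 2 lower, are read beside 16.0% of all genes tested that were called, 7.66% higher and 8.38% lower. The 2 groups were fully separated for 7 of the 10 genes, 6 of them lower and 1 higher in MIR21-KO cells, against 48.1% of all genes tested, 25.2% lower and 22.8% higher. The median log2 fold change was -0.38 over the 10 genes and -0.02 over all genes tested. All fold changes are on the log2(FPKM + 0.1) scale, which understates changes of low genes. The study's methods state at least biological triplicates, and a supplementary legend names 3 independent samples for this RNA-seq. Whether these were separate cultures is not stated, and the p-values measure only the spread between these libraries.

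**Figure D1:**
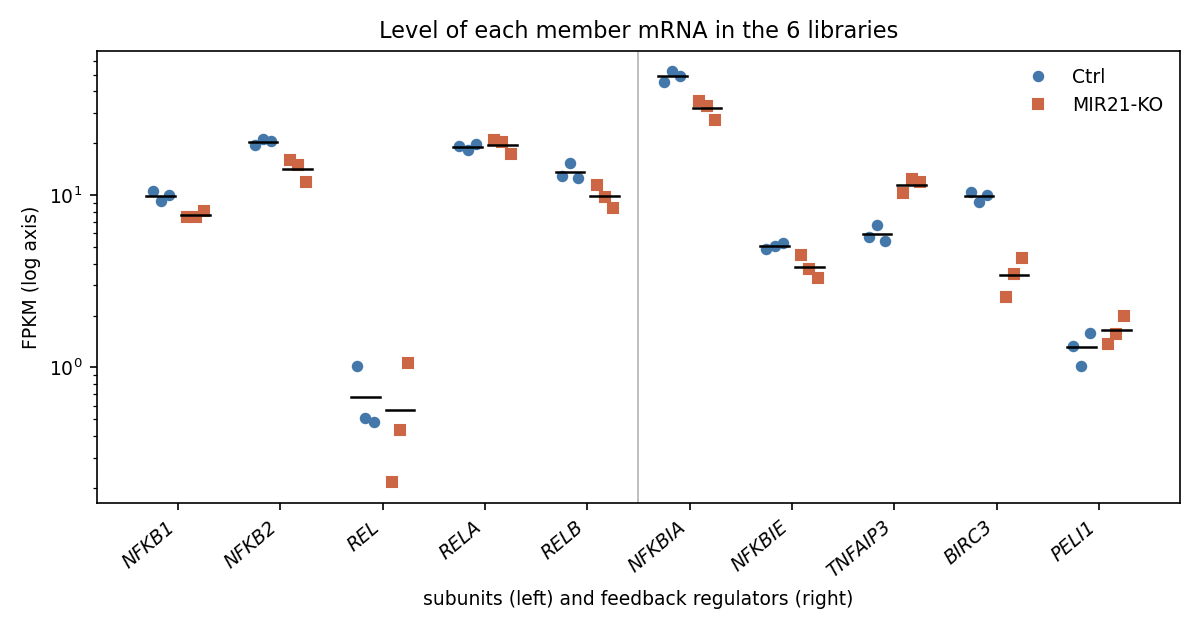
FPKM on a log axis of the 5 subunits (left of the grey line) and 5 feedback regulators (right) in each of the 3 Ctrl (circles) and 3 MIR21-KO (squares) libraries, with black bars at the group means. BIRC3 and NFKBIA sit lower in all 3 MIR21-KO libraries and TNFAIP3 sits higher, while RELA, REL and PELI1 overlap between the groups.

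**Figure D2:**
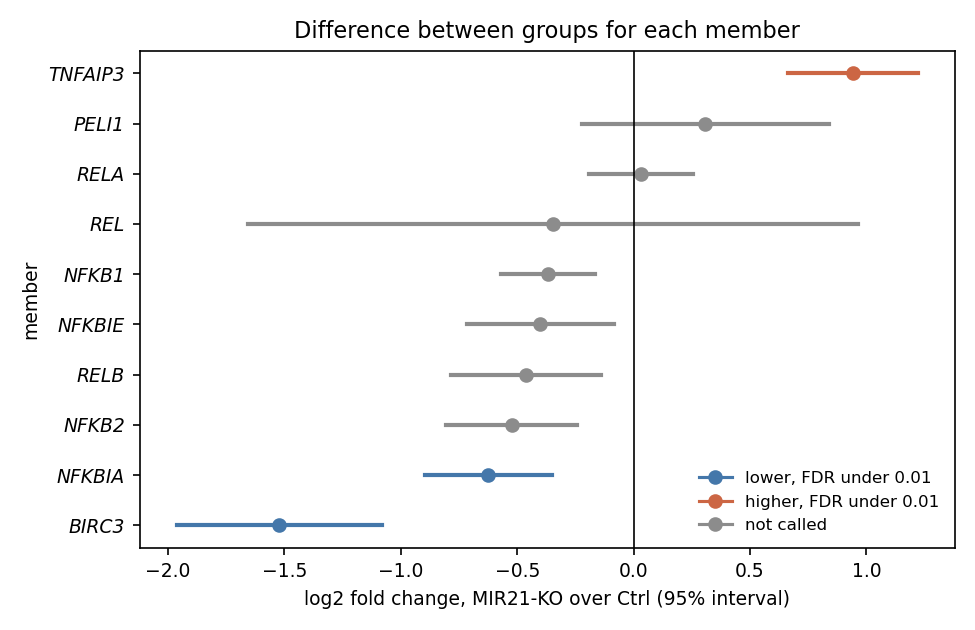
Log2 fold change of MIR21-KO over Ctrl for each of the 10 genes, as points with 95% intervals from limma, coloured by whether the gene passed an FDR under 0.01. The intervals run from -1.96 to -1.08 for BIRC3 and from 0.66 to 1.22 for TNFAIP3, and the interval of REL is the widest of the 10, from -1.66 to 0.96.

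Of the feedback regulators, BIRC3 changed most. BIRC3 (ENSG00000023445; chr11:102317450-102339403, plus strand) was at 10.42, 9.127 and 10.06 FPKM in Ctrl libraries 1 to 3 and at 2.548, 3.477 and 4.297 FPKM in MIR21-KO libraries 1 to 3. The highest MIR21-KO value lay below the lowest Ctrl value by more than the range of either group. Its mean of 9.87 ± 0.666 FPKM (SD, n = 3) in Ctrl became 3.44 ± 0.875 FPKM (SD, n = 3), a log2 fold change of -1.52 ± 0.19 (SE) with an FDR of 0.00172 in limma. The FDR ran from 8.97e-05 to 0.0118 over the alternatives. It was above 0.01 without Ctrl library 1 (0.0118), Ctrl library 3 (0.0118) or MIR21-KO library 2 (0.0116), with a log2 fold change between -1.69 and -1.33 when any one library was left out.

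TNFAIP3 (ENSG00000118503; chr6:137867188-137883312, plus strand), the ubiquitin editor A20, was the only one of the 10 genes that was called higher. It was at 5.708, 6.719 and 5.428 FPKM in the Ctrl libraries and at 10.24, 12.37 and 11.92 FPKM in the MIR21-KO libraries, and the groups were well separated. The means were 5.95 ± 0.679 and 11.5 ± 1.12 FPKM (SD, n = 3 each), with a log2 fold change of 0.94 ± 0.12 (SE) and an FDR of 0.00185 in limma. This gene holds the 7mer to miR-21-5p and a let-7 seed match printed or named above, as well as the paired NF-kappaB motif. An annotated antisense gene, AL357060.1, overlaps its start on the other strand at a mean of 0.148 FPKM, and the strand setting of the counting is not given in the sources used here. Without Ctrl library 1 the FDR was 0.0124, without Ctrl library 3 it was 0.0118 and without MIR21-KO library 2 it was 0.0137, while the log2 fold change stayed between 0.88 and 1.03.

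NFKBIA (ENSG00000100906; chr14:35401511-35404749, minus strand), the gene of IkBα, was the most abundant of the 10 mRNAs in both groups. Its levels were 45.25, 52.35 and 49.3 FPKM in Ctrl and 35.35, 32.87 and 27.32 FPKM in MIR21-KO libraries, with no overlap. The mean fell from 49.0 ± 3.56 to 31.9 ± 4.11 FPKM (SD, n = 3 each), a log2 fold change of -0.62 ± 0.11 (SE) with an FDR of 0.00768 in limma. This call was the closest to the threshold of the 3. It was lost without Ctrl library 1 (FDR 0.0225), Ctrl library 2 (0.0355), Ctrl library 3 (0.0355) or MIR21-KO library 2 (0.0323), and also with no filter on low genes (0.0162), without a variance trend and robust fitting (0.018) and with a replicate block (0.0301). The FDR was 0.000104 once trends of the log ratios with gene length and GC content had been removed, and the direction was lower in each of these fits. That smallest FDR rests on a spread among MIR21-KO libraries below counting error, as given further down.

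NFKBIE (ENSG00000146232; chr6:44258166-44265788, minus strand), which encodes the second IkB protein of the set, was at 4.87, 5.044 and 5.297 FPKM in Ctrl and at 4.522, 3.734 and 3.286 FPKM in MIR21-KO libraries. The MIR21-KO values all lay below the Ctrl values, but MIR21-KO library 1 came close to them. The means were 5.07 ± 0.215 and 3.85 ± 0.626 FPKM (SD, n = 3 each), and the log2 fold change of -0.40 ± 0.13 (SE) did not pass the threshold, with an FDR of 0.0599 in limma. The ratio of NFKBIA to NFKBIE was 9.66 ± 0.624 in Ctrl and 8.31 ± 0.492 in MIR21-KO cells.

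PELI1 (ENSG00000197329; chr2:64092652-64144454, minus strand), the gene with the 8mer to miR-21-5p, was at 1.333, 1.014 and 1.595 FPKM in Ctrl and at 1.37, 1.564 and 2 FPKM in MIR21-KO libraries. The groups overlapped, with only MIR21-KO library 3 above every Ctrl library. These levels rest on 45 to 107 reads per library. The means were 1.31 ± 0.291 and 1.65 ± 0.322 FPKM (SD, n = 3 each), and the log2 fold change of 0.31 ± 0.22 (SE) had a 95% interval from -0.22 to 0.84 and an FDR of 0.331 in limma. None of the 19 alternatives called PELI1, with log2 fold changes of 0.15 to 0.45 and FDRs of 0.141 to 0.669, and at this depth a rise of up to 0.84 on the log2 scale lies within the interval.

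Of the 5 subunit mRNAs, 0 passed the FDR threshold in limma and 3 had an unadjusted p under 0.05. These 3 ranked 3264 (NFKB2), 3320 (NFKB1) and 4693 (RELB) by p among the 16006 genes tested. Limma-voom on the recovered reads called 1, NFKB2, beside 3496 of all 16006 genes tested. NFKB2, NFKB1 and RELB were lower in all 3 MIR21-KO libraries than in any Ctrl library, and RELA and REL overlapped. The median log2 fold change of the 5 was -0.37.

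NFKB2 (ENSG00000077150; chr10:102394110-102402529, plus strand), the precursor of p52 and the substrate of the noncanonical pathway, was at 19.48, 21.07 and 20.63 FPKM in Ctrl and at 15.91, 14.97 and 11.9 FPKM in MIR21-KO libraries. The groups did not overlap, and MIR21-KO library 3 was the lowest. The means were 20.4 ± 0.819 and 14.3 ± 2.099 FPKM (SD, n = 3 each), with a log2 fold change of -0.52 ± 0.12 (SE) and an FDR of 0.0163 in limma. NFKB2 crossed the threshold without MIR21-KO library 3 (log2 fold change -0.40, FDR 0.00632), with voom on the recovered reads (0.00616) and with scaling by total reads (0.00596).

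NFKB1 (ENSG00000109320; chr4:102501329-102617302, plus strand), the precursor of p50, was at 10.58, 9.258 and 10.03 FPKM in Ctrl and at 7.496, 7.48 and 8.07 FPKM in MIR21-KO libraries. Both groups were tight and did not overlap. The means of 9.96 ± 0.666 and 7.68 ± 0.336 FPKM (SD, n = 3 each) gave a log2 fold change of -0.37 ± 0.08 (SE) with an FDR of 0.0172 in limma, short of the threshold.

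RELB (ENSG00000104856; chr19:45001430-45038198, plus strand), the usual partner of p52, was at 12.99, 15.35 and 12.5 FPKM in Ctrl and at 11.41, 9.823 and 8.408 FPKM in MIR21-KO libraries. The gap between the groups was smaller than the range within either. The means were 13.6 ± 1.52 and 9.88 ± 1.504 FPKM (SD, n = 3 each), and the log2 fold change of -0.46 ± 0.14 (SE) had an FDR of 0.0402 in limma.

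RELA (ENSG00000173039; chr11:65653596-65663094, minus strand), the p65 subunit of the classical dimer, was at 19.18, 18.17 and 19.84 FPKM in Ctrl and at 20.97, 20.35 and 17.31 FPKM in MIR21-KO libraries. MIR21-KO library 3 was the lowest of the 6 and the other two MIR21-KO libraries were the highest. The means were 19.1 ± 0.841 and 19.5 ± 1.96 FPKM (SD, n = 3 each), with a log2 fold change of 0.03 ± 0.09 (SE), a 95% interval from -0.19 to 0.25 and an FDR of 0.826 in limma. The sign of this small difference turned with scaling by total reads, to -0.00496.

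REL (ENSG00000162924; chr2:60881521-60931610, plus strand), the c-Rel subunit best known from lymphoid cells, was the least abundant of the 10 genes and the most variable. It was at 1.026, 0.5122 and 0.4807 FPKM in Ctrl and at 0.2152, 0.4354 and 1.055 FPKM in MIR21-KO libraries, from 147, 62, 74, 33, 60 and 154 reads in the same order. MIR21-KO library 3 was 4.90-fold above MIR21-KO library 1, and Ctrl library 1 was 2.13-fold above Ctrl library 3. The exact 95% Poisson intervals, which cover counting error only, ran from 0.148 to 0.302 FPKM in MIR21-KO library 1 and from 0.895 to 1.24 FPKM in MIR21-KO library 3, so counting error does not cover the gap. The coefficient of variation was 45.5% in Ctrl and 76.6% in MIR21-KO cells, against 10.3% and 11.0% from counting alone. REL had a log2 fold change of -0.35 ± 0.55 (SE) and an FDR of 0.668 in limma, and the fold change was 0.09 without MIR21-KO library 1 and -0.84 without MIR21-KO library 3. Removing the trends with length and GC content took the SD of log2 REL in MIR21-KO cells from 0.94 to 0.66. An annotated gene on the same strand, AC010733.2 (chr2:60925909-60931610), overlaps the end of REL and was at a mean of 0 FPKM. How reads in the shared stretch were counted is not given in the sources used here. The part of this overlap in the low level of REL was not tested.

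**Figure D3:**
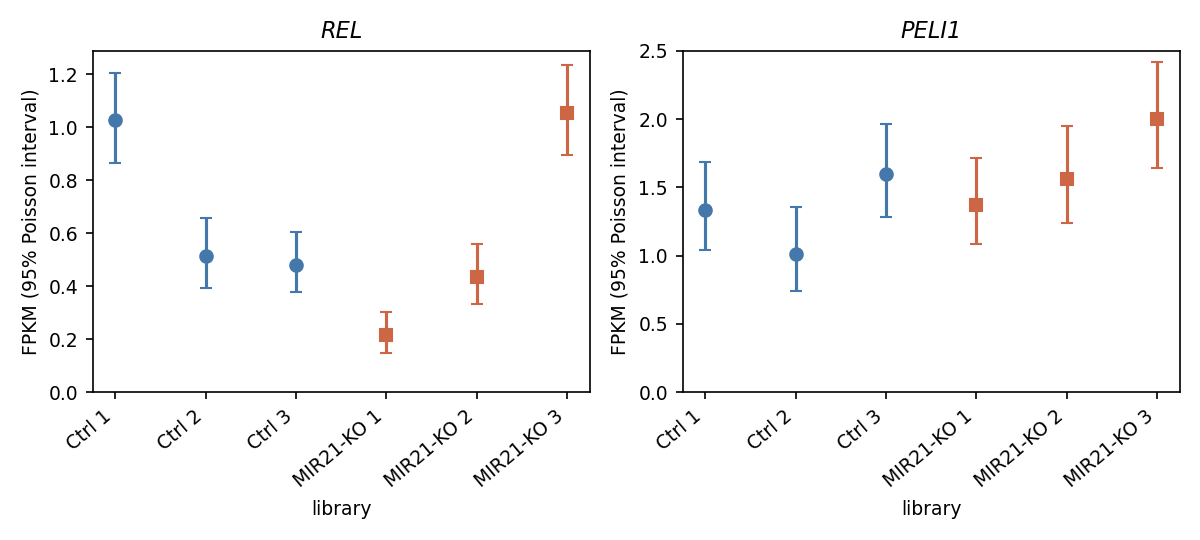
FPKM with exact 95% Poisson intervals of REL (left) and PELI1 (right) in each of the 6 libraries, both axes from 0. REL spans 0.215 to 1.06 FPKM within the MIR21-KO group alone, with intervals that do not overlap, whereas most PELI1 intervals overlap between the groups.

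Part of the spread among MIR21-KO libraries ran with gene length and GC content. When the trends of the log ratios with both were removed, the SD of log2 NFKBIA among the MIR21-KO libraries went from 0.19 to 0.03, that of RELB from 0.22 to 0.03, that of NFKBIE from 0.23 to 0.06 and that of NFKB2 from 0.22 to 0.07, while TNFAIP3 stayed at 0.14. In that fit 7 of the 10 genes were called, TNFAIP3 higher and BIRC3, NFKBIA, NFKB2, NFKB1, RELB and NFKBIE lower, with FDRs of 0.000282 for NFKB2, 0.00465 for NFKB1, 0.00141 for RELB and 0.0017 for NFKBIE. For NFKBIA, RELB and NFKBIE in MIR21-KO cells, counting alone gives coefficients of variation of 3.2, 5.07 and 8.8%. On the log2 scale these lie above the remaining SDs. With 3 libraries per group such small spreads are uncertain, and so are the FDRs that rest on them. The fit with trends removed called 3976 of 15955 genes in all, against 2568 of 16006 in the fit used here. At an FDR under 0.05, 6 of the 10 genes were called, 5 of them lower, beside 5114 of all 16006 genes tested.

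The order of the 10 mRNAs by level per length differed between the groups. In Ctrl cells NFKBIA was followed by NFKB2 and RELA, whose ranges overlapped, and then by RELB. Next came NFKB1 and BIRC3 with overlapping ranges, then TNFAIP3, then NFKBIE, and last PELI1 and REL with overlapping ranges. In MIR21-KO cells RELA stood second, above NFKB2, TNFAIP3 and RELB, whose ranges each overlapped with the next, and BIRC3 had moved from the sixth to the eighth place beside NFKBIE. TNFAIP3 was at 0.548, 0.736 and 0.540 times BIRC3 in Ctrl libraries and at 4.02, 3.56 and 2.77 times BIRC3 in MIR21-KO libraries. NFKBIA was at 2.36, 2.88 and 2.48 times RELA in Ctrl libraries and at 1.69, 1.62 and 1.58 times RELA in MIR21-KO libraries, which is a ratio of inhibitor to p65 mRNA and not of proteins. These ratios are independent of library scaling, and neither set overlapped between the groups.

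**Figure D4:**
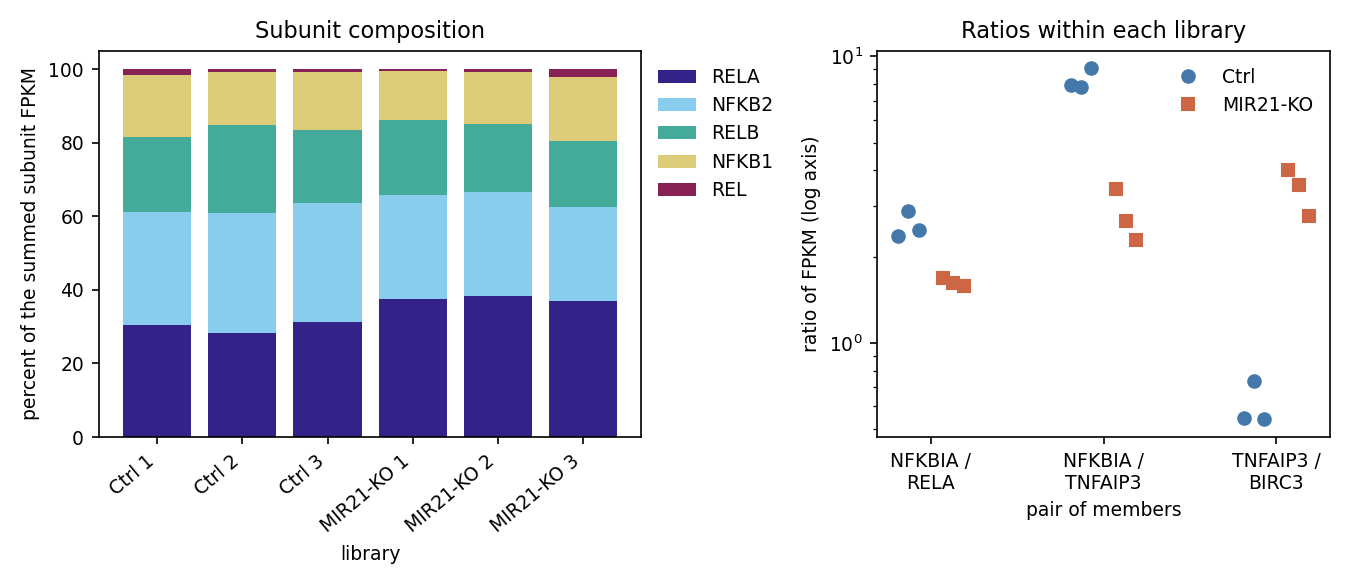
Left, the share of each subunit in the summed FPKM of the 5 subunits per library, in percent. Right, the ratio of FPKM values within each library on a log axis for 3 pairs of genes, with Ctrl as circles and MIR21-KO as squares; RELA makes up 28.2 to 31.3% of the sum in Ctrl and 37.0 to 38.4% in MIR21-KO cells, and none of the 3 ratios overlaps between the groups.

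The summed level of the 5 subunits was 63.7 ± 0.581 FPKM in Ctrl and 51.9 ± 4.73 FPKM in MIR21-KO cells (SD, n = 3 each). RELA made up 30.32, 28.24 and 31.26% of this sum in Ctrl libraries and 37.44, 38.35 and 37.04% in MIR21-KO libraries. NFKB2 made up 32.0 ± 1.06% and 27.4 ± 1.66%, RELB 21.4 ± 2.20% and 19.0 ± 1.26%, NFKB1 15.6 ± 1.18% and 14.9 ± 2.07%, and REL 1.06 ± 0.488% and 1.15 ± 0.980%. RELA was thus the leading subunit mRNA in each MIR21-KO library. NFKB2 had the highest value in each Ctrl library, but in Ctrl libraries 1 and 3 its 95% Poisson interval overlapped that of RELA. FPKM also depends on the gene length used, so the order of NFKB2 and RELA in Ctrl cells is uncertain.

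Among the listed pathway genes, the levels most like NFKBIA over the 6 libraries were those of CXCL3 (Pearson's r of 0.99), NFKB2 (0.99) and LCN2 (0.98). For TNFAIP3 they were IL6 (0.99), SOD2 (0.98) and PELI2 (0.97), and for BIRC3 they were IRAK2, TAX1BP1 and TNFAIP8 (0.99 each). With 6 libraries in 2 groups, these values describe mainly the difference between the groups, and they share the same libraries.

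A list of 97 other pathway genes gives the surroundings of the 10 genes. Of these, 81 were expressed highly enough to be tested, 9 were called higher and 9 lower. That is 22.2% against 16.0% of all genes tested, in a list chosen with earlier results of these data known. Their median log2 fold change was -0.05. Of the 18 calls, 6 stayed called whichever library was left out: CD40, PELI2, IL6 and SOD2 higher, and PTGS2 and BCL2L1 lower.

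Upstream of the 10 genes, the kinase NIK (MAP3K14), which drives processing of NFKB2 and is degraded with the help of BIRC3, fell from 19.0 ± 0.568 to 12.97 ± 0.875 FPKM (log2 fold change -0.55, FDR 0.00277 in limma). It was the 1 call among 6 genes listed as IkB kinases and NIK (16.7%), against 16.0% of all genes tested. CHUK, at 7.996 and 5.20 FPKM, had a log2 fold change of -0.62 with an FDR of 0.0206. Among 8 tested receptors, CD40, whose signal runs through NIK, rose from 1.79 ± 0.171 to 4.97 ± 0.390 FPKM (log2 fold change 1.43, FDR 0.000458), and the IL-1 receptor accessory protein IL1RAP rose from 0.874 to 2.47 FPKM (FDR 0.00622). The TNF receptor TNFRSF1A was at 85.7 and 123.3 FPKM with an FDR of 0.0151. Of 20 adaptors and kinases 1 was called, IRAK2, which fell from 13.5 to 8.64 FPKM (FDR 0.00219), and MYD88, at 10.9 and 11.0 FPKM, had an FDR of 0.857. Of the 5 listed ligands, TNF and LTA were listed at 0 in every library, 2 were tested, 0 were called by limma or limma-voom and 0 had an unadjusted p under 0.05.

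The other regulators moved in both directions. BCL3, a nuclear IkB protein that binds p50 and p52 dimers, rose from 31.9 ± 0.478 to 56.6 ± 8.70 FPKM (log2 fold change 0.81, FDR 0.00305 in limma) and was the 1 call among 4 other IkB genes. NFKBIB, the gene of IkBβ, was at 44.9 and 32.1 FPKM with an FDR of 0.0273, and NFKBIZ at 7.92 and 11.7 FPKM with an FDR of 0.0139. Among 15 tested ubiquitin ligases and editors, PELI2, the paralog of PELI1, rose from 0.317 ± 0.0627 to 1.89 ± 0.231 FPKM (log2 fold change 2.25, FDR 0.00081). RBCK1, the HOIL-1 subunit of the linear ubiquitin ligase, rose from 26.6 to 46.3 FPKM (FDR 0.00513). PELI2 and RBCK1 were the 2 calls among these 15 genes (13.3%). TNIP1, a partner of A20, was at 31.8 and 33.5 FPKM with an FDR of 0.602.

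Of 26 tested genes known to be induced by NF-kappaB, 4 were called higher and 7 lower. That is 42.3% of this list against 16.0% of all genes tested. The list was chosen with earlier results of these data known, so this share is a description and no test. IL6, an inflammatory cytokine, rose from 1.33 ± 0.253 to 6.40 ± 0.529 FPKM (log2 fold change 2.20, FDR 0.000237 in limma), and the mitochondrial superoxide dismutase SOD2 rose from 13.01 to 22.4 FPKM (FDR 0.000564). PTGS2, the inducible cyclooxygenase, fell from 12.3 ± 0.468 to 2.64 ± 0.652 FPKM (log2 fold change -2.21, FDR 0.000291), and the survival gene BCL2L1 fell from 86.1 to 43.1 FPKM (FDR 0.000621). LCN2, CSF2, TNFAIP8, CXCL3 and BCL2A1 were the other genes called lower, with log2 fold changes from -1.39 to -0.56. SDC4 and CD83 were the other genes called higher, at 0.48 and 0.99. With one library left out, CD83 was called in 0 of 6 fits and SDC4 in 1. The remaining 15 genes were not called, among them CXCL1, the most abundant of the list, at 139.8 and 157.7 FPKM (FDR 0.332). CSF2 rests on a mean of 16.8 reads, and CXCL3 shares sequence with close paralogs, so its count is uncertain. The median log2 fold change of this list was -0.06.

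**Figure D5:**
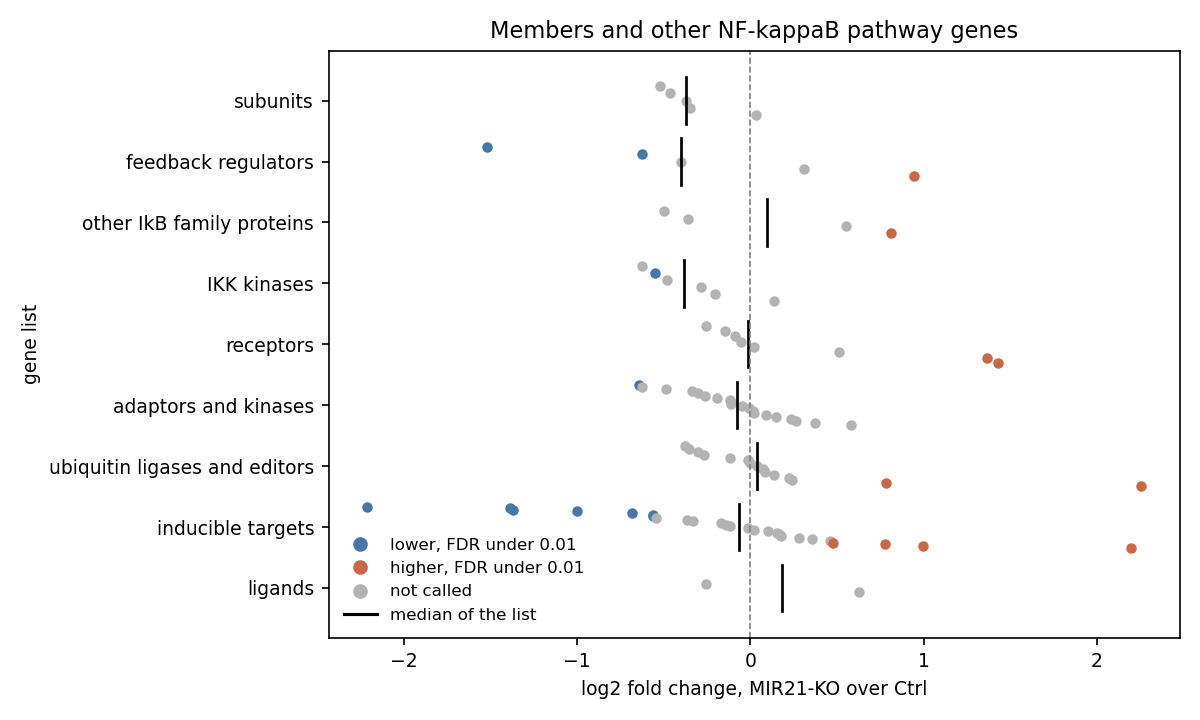
Log2 fold change of MIR21-KO over Ctrl for each tested gene of the subunit, feedback regulator and 7 other pathway lists, with a black bar at each list's median and coloured points for genes with an FDR under 0.01. The subunits spread from -0.52 to 0.03, whereas the inducible targets spread from -2.21 to 2.20 with calls on both sides.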

How the data were processed

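PolyA RNA-seq data of 6 A549 libraries, 3 Ctrl and 3 MIR21-KO, were analysed, with groups and replicate numbers taken from the sample titles. The deposited table covers 58174 genes. For each it gives the length, FPKM computed by the authors for every library, and fold changes, p-values and FDRs of the authors' own comparison, which were not used. The submitters' processing notes name cutadapt 1.14, HISAT2 2.1.0, SAMtools 1.5, featureCounts 1.5.3, edgeR 3.18.1 and the build hg38; annotation release and strand setting are not given in the sources used here. The study's methods state TMM normalization for FDRs. FPKM times length gave whole reads for 100% of values (tolerance 0.01), so reads per library were recovered; the library sizes implied by the FPKM were 0.950 to 1.03 times their sums. All 37 mitochondrial genes are listed at 0, so a listed 0 can stem from the processing. A count of 0 allows up to 3 reads, or 0.219 to 0.279 FPKM on 1 kb; floors and intervals cover counting error only.

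A filter on the mean over all libraries (0.5 FPKM or more) left 16006 genes. Their log2(FPKM + 0.1) values were compared in limma 3.58.1, run in R 4.3.3 (eBayes with trend and robust fitting, two-sided, no covariate), and called at a Benjamini-Hochberg FDR under 0.01, the threshold of the study. Because the table holds FPKM, no negative binomial test was run, and voom on recovered reads served as an alternative. The fit was tested on simulated data. Other alternatives were 2 scalings, 2 pseudocounts, 3 filters, plain fitting, a replicate block, removal of length and GC trends (alone and with the block), an FDR of 0.05 and leaving out each library. Replicate numbers did not pair the samples: the deviations of same-numbered libraries correlated at -0.171, -0.018 and -0.017. Coordinates and UTRs came from GENCODE 29 (57836 of 58174 genes matched) and promoters and miRNAs from RefSeq. Python 3.11.15 and matplotlib 3.10.9 drew the plots.

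All 10 genes are named with every value. Of the other lists, genes past the threshold and, of the rest, up to 3 with the highest mean FPKM were eligible for naming, and for each called gene the 3 most correlated listed genes. The 10 genes and the lists were chosen with earlier results of these data known.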

Additional observations from a re-analysis of the deposited data

How the results depend on the processing

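Over 189 fits of single genes (10 genes, 19 alternatives; REL has no value at a minimum of 1 FPKM), 159 kept the direction and the side of the threshold, 13 lost a call, 11 gained one and 6 turned sign, all 6 in RELA or REL, which were never called. RELA was at 0.03 and turned to -0.00496 with scaling by total reads and to -0.0395 with length and GC trends removed, with and without the replicate block, and REL at -0.35 ranged from -0.84 to 0.0935 when one library was left out (RELA from -0.0217 to 0.12). LTBR (-0.0153 and -0.0293; -0.11 to 0.16 with one library left out), MYD88 (-0.0174 and -0.0142; -0.00464 to 0.0353), TNIP1 (-0.0198 with trends removed) and TNFRSF12A (-0.24 to 0.10) also turned sign. The 7 genes whose groups did not overlap were 7 under both scalings and with trends removed.

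Of the 10 genes, 3 were called, 2 of them lower; 1 was called lower with no filter, with plain fitting and with the replicate block, 5 lower (6 in all) at an FDR of 0.05, and 6 lower (7 in all) with trends removed. With one library left out 0 to 4 were called, 0 to 1 higher and 0 to 3 lower: 0 without Ctrl library 1, Ctrl library 3 or MIR21-KO library 2, where 6 or 7 had an unadjusted p under 0.05 in limma, 2 without Ctrl library 2, 3 without MIR21-KO library 1 and 4 without MIR21-KO library 3. Of the other pathway genes 9 were called higher and 9 lower; the counts were 5 higher with no filter, 14 higher with voom, 3 and 3 with the replicate block, 14 and 17 at an FDR of 0.05, 14 and 20 with trends removed, and 4 to 11 higher and 2 to 14 lower with one library left out. Over all genes 2568 were called, 1226 higher and 1342 lower; the replicate block gave 651 (379 and 272), an FDR of 0.05 gave 5114 (2428 and 2686), trends removed gave 3976 (2143 lower), and leaving out one library gave 768 to 3400 (388 to 1599 and 368 to 1801). The share of calls that were higher was 47.7%, 50.7% with median-ratio scaling and 43.3% by total reads. The causes were not tested.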

Other observations

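Of the 81 other pathway genes tested, 14 had a match of 7 or 8 bases to the miR-21-5p seed in the longest annotated 3′ UTR, beside 15.14% of all tested genes with a 3′ UTR. IL1RAP, PELI2, RBCK1 and SOD2 were among them and were called higher in MIR21-KO cells, and the remaining 10 were not called, where 7.66% of all genes tested were called higher. The median log2 fold change of the 14 was -0.06, against -0.05 for all 81. The let-7 seed was matched in 17 of the 81, of which 2 were called higher and 3 lower, with a median log2 fold change of -0.21. Seed matches of both miRNAs were carried by 5 of the 81, SOD2, which was called higher, and CHUK, IKBKG, OTULIN and CFLAR, which were not called and had log2 fold changes of -0.62, -0.21, -0.36 and -0.12.

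The NF-kappaB consensus was found in promoters of 25 of the 85 other listed pathway genes with a RefSeq entry (29.41%). The shares were 8.97% of 9355 tested genes and 7.09% of all 27305 genes with an entry. It was found in 4 of 4 other IkB genes and in 13 of 27 inducible targets (48.15%). It was found in 0 of 5 genes from the list of IkB kinases and NIK, and in 0 of 11 receptors. Lists of 5 and 11 genes are too short to set 0 apart from the shares over all genes. These are counts of letters in windows, and neither binding nor promoter activity was measured.

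Transcripts of VMP1, the gene that overlaps the MIR21 locus, were at 70.7, 76.8 and 77.8 FPKM in Ctrl and at 134.6, 144.5 and 148.5 FPKM in MIR21-KO libraries. The groups thus differed in this gene as well, and its part in the results above was not tested.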
